A study of Mus musculus with 24 samples.

Results

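The genes described are the nuclear-encoded subunits and factors of the mitochondrial respiratory chain and ATP synthase. They were chosen by symbol prefix alone: Nduf for complex I, Sdha to Sdhd for complex II, Uqcr for complex III, Cox4 to Cox8 for complex IV and Atp5 for complex V. Of 21878 genes in the count table, 92 matched: 45 for complex I, 4 for complex II, 8 for complex III, 18 for complex IV and 17 for complex V. The prefix is not the same as the complex. It also takes in the complex I assembly factors Ndufaf1 to Ndufaf7, the factors Atp5s and Atp5sl, and Ndufa4, a subunit now assigned to complex IV, and it leaves out Cyc1, Cycs, Usmg5 and Atpif1. Of the 92 genes, 90 had enough reads to be tested. Cox7b2 had 25 counts over 23 libraries and Cox8c had 0, and both stayed out of the tests. The 13 subunits encoded in mitochondrial DNA were not analysed here.

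RNA came from whole hearts of mice, and every group shared 3 interventions: the ovaries had been removed, an AAV9 vector had been given, and a myocardial infarction had been induced. Hearts were taken 3 weeks after the infarction. MEC hearts had the empty vector and no swimming (n = 6), and MES hearts the empty vector and swimming before the infarction (n = 6). MOC hearts had the vector that overexpresses miR-21 (AAV9-OE miR-21) and no swimming (n = 6), and MOS hearts had that vector and swimming (n = 5; replicate 6 was not analysed here). The labels name no age, strain or promoter of the vector, and the level of miR-21 itself was not analysed here. Nothing in the labels says that libraries came from separate animals, so the p-values measure the spread between these samples.

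The chain passes electrons from NADH through complex I, or from succinate through complex II, to ubiquinone, then through complex III and cytochrome c to complex IV, which reduces oxygen. Complexes I, III and IV pump protons, and complex V, the ATP synthase, uses the return flow of protons to make ATP. Heart muscle is packed with mitochondria and relies on this route for nearly all of its ATP, and several subunits of complex IV have a form that is typical of heart and skeletal muscle. Most subunits other than those of mitochondrial DNA are small proteins with short mRNAs.

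Since the vector carried miR-21, the mature sequence of miR-21a-5p is shown with its seed (bases 2 to 8) in capitals, as RefSeq gives it.
mmu-miR-21a-5p: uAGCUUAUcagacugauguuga
An mRNA that pairs with the whole seed holds ATAAGCT. Of 91 respiratory chain genes with an annotated 3′ UTR in GENCODE vM21, 4 held that heptamer (4.4%), against 1086 of 13014 tested genes (8.34%). The members' UTRs are also shorter: the median of the longest 3′ UTR was 201 bases in the members and 1200 bases in all tested genes. The 4 genes were Atp5g1 (a gene for the c subunit of the ATP synthase rotor), Ndufaf4 (a complex I assembly factor), Ndufb5 (an accessory subunit) and Ndufv2 (a core subunit that binds an iron-sulfur cluster), which had 2 sites. Each site is written 5′ to 3′ as the mRNA reads with T for U, the match in capitals, on build GRCm38.
Atp5g1 (chr11:96071017-96071043, minus strand): tgcctaggccATAAGCTaggctgcttc
Ndufaf4 (chr4:24904828-24904854, plus strand): tctgtctgatATAAGCTtgagataacc
Ndufb5 (chr3:32751364-32751390, plus strand): gacactgttgATAAGCTgctgatgccg
Ndufv2 (chr17:66079422-66079448, minus strand): acttccctacATAAGCTttattcggtt
Ndufv2 (chr17:66079151-66079177, minus strand): taaattttttATAAGCTttatgtcaat
The site lies in 2 of 4 annotated transcripts with a 3′ UTR in Atp5g1, in 1 of 4 in Ndufb5, and in 1 of 2 in each of Ndufaf4 and Ndufv2. Without swimming, none of the 4 genes passed the test between the miR-21 and the empty vector, and all 4 estimates lay above 0, as did those of 86 of the 90 tested members. The log2 fold changes were 0.28 (SE 0.13) for Atp5g1, 0.13 (SE 0.11) for Ndufaf4, 0.28 (SE 0.16) for Ndufb5 and 0.23 (SE 0.12) for Ndufv2, with adjusted p-values from edgeR's quasi-likelihood test between 0.162 and 0.427. With swimming none of the 4 passed either, and all 4 estimates lay below 0, as did those of 85 of the 90 members. They were -0.32 (SE 0.14) for Atp5g1, -0.23 (SE 0.12) for Ndufaf4, -0.25 (SE 0.17) for Ndufb5 and -0.22 (SE 0.12) for Ndufv2, with edgeR's adjusted p-values between 0.189 and 0.43. A heptamer is a match of letters and not a tested site.

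Promoters are shown because transcription factors such as NRF1, the estrogen-related receptors (ERR), ETS factors such as GABP, and YY1 are known to bind near many respiratory chain genes. RefSeq (GRCm38.p6) gave 250 bases before to 50 after the start site for 73 of the 92 genes. The NRF1 palindrome (GCGCA followed by TGCGC) was found in 7 of those 73 genes (9.6%), against 1.07% of 27025 genes with a promoter of the same length. The ETS motif CCGGAAGT was found in 5 (6.8%, against 4.31%), the YY1 motif (AAGATGGCG followed by GC) in 4 (5.5%, against 0.755%) and the ERR motif TCAAGGTCA in 2 (2.7%, against 0.466%), all on either strand. The 27025 genes include genes not tested here, and the share over the tested genes alone was not computed. Of the 73 genes, 18 held at least 1 of the 4 motifs. Examples are written 5′ to 3′ along the gene with the motif in capitals.
Atp5k (NRF1, chr5:108434430-108434459, minus strand): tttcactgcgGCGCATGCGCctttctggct
Ndufaf4 (NRF1, chr4:24897960-24897989, plus strand): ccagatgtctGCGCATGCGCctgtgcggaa
Uqcr11 (ETS, chr10:80406869-80406898, minus strand): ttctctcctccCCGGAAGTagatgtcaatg
Uqcrh (ETS on the other strand, chr4:116075071-116075100, minus strand): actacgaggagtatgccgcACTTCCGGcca
Atp5g3 (ERR on the other strand, chr2:73911359-73911388, minus strand): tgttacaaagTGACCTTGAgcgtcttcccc
None of the 4 motifs was found in the windows of the 5 genes that passed the test below, all of which have a RefSeq promoter.

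Libraries held 12744241 to 14657630 counts, and none of 253 pairs of libraries had identical values. Of the 23 libraries, 3 stood apart by adipocyte genes: MEC replicates 2 and 5 and MOS replicate 2. The adipocyte hormone gene Adipoq was at 25.5, 26.9 and 27 CPM (read counts scaled to library size) in them and at 0 to 2.32 CPM in the other 20, while the brown fat gene Ucp1 stayed at or under 0.135 CPM in every library. Over 9 tested adipocyte markers, the mean deviation of log2 CPM from each gene's mean was 2.883, 2.715 and 2.416 in the 3, and at most 0.604 elsewhere. The summed CPM of 13 adipocyte markers did not separate them (4740 to 7200 CPM against 4680 to 9700 CPM). In that sum Lpl alone ran from 3560 to 8410 CPM. The same 3 libraries had the lowest summed level of 16 cardiomyocyte markers, 70900 to 91200 CPM against 105000 to 136000 CPM, and the highest of 8 fibroblast markers, 5520 to 8290 CPM against 1240 to 5410 CPM. Their macrophage markers summed to 1470 to 2360 CPM, against 335 to 985 CPM in the others. MOS replicate 2 also had the highest mesothelial gene Upk3b, at 55.8 CPM against at most 11.6 CPM elsewhere. The 3 libraries also had the lowest levels of the respiratory chain genes. Over the 90 tested genes, the median deviation of log2 CPM from each gene's mean was -0.27, -0.45 and -0.73 in them, and -0.10 to 0.36 in the other 20. In these bulk samples, fewer cardiomyocytes and less RNA of these genes per cardiomyocyte cannot be told apart. Counts of called genes and medians are therefore given with and without the 3 libraries, and what part other cell types have in a result was not tested.

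By library, the members took 4.93% ± 0.47 of all counts in MEC (SD, n = 6), 5.55% ± 0.18 in MES (n = 6), 5.57% ± 0.38 in MOC (n = 6) and 4.95% ± 0.75 in MOS (n = 5, from 3.64% to 5.47%). Each library's median deviation over all tested members averaged -0.10 ± 0.22 in MEC, 0.09 ± 0.06 in MES, 0.14 ± 0.12 in MOC and -0.16 ± 0.32 in MOS (SD). All 4 groups overlapped. The 5 complexes followed each other from library to library: MOS replicate 2 was the lowest of the 23 libraries for each, at -0.74 for complex I, -0.82 for complex II, -0.70 for complex III, -0.70 for complex IV and -0.71 for complex V.

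**Figure D1:**
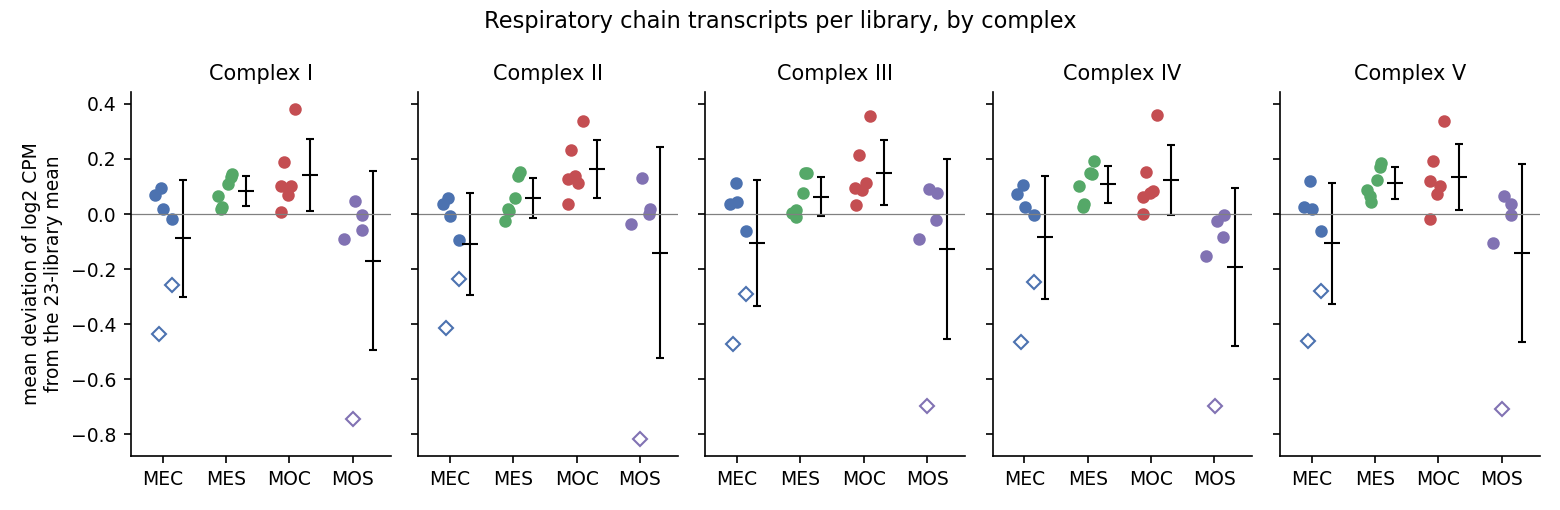
Median deviation (labelled mean deviation on the axis) of log2 CPM from each gene's mean over the tested genes of each complex, by library and group. Each point is a library, open diamonds are the 3 libraries with high adipocyte genes, and the black bar is the mean ± SD. MOS replicate 2 is the lowest point for every complex (-0.70 to -0.82), and the MEC and MOS groups are spread more widely than the MES group.

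Single genes moved with the rest of the set. Across the 23 libraries, Pearson's r between a gene's log2 CPM and the mean of the other members had a median of 0.93, and 58 of 90 genes were above 0.9. Over the 20 libraries without the 3 that stood apart, the median was 0.76 and 15 genes were above 0.9. The points share library and depth, so these values describe the libraries and carry no test. Ndufa4l2, a hypoxia-responsive paralog of Ndufa4, had the lowest r in both sets of libraries (-0.03 and -0.12). Cox8a, Cox4i2, Cox6b2 and Cox6a1, forms of complex IV subunits other than the abundant ones of heart, followed it over the 20 libraries (0.12, 0.17, 0.19 and 0.21). Among catalytic or core subunits, Ndufs1 and Sdha were also low over the 20 libraries (0.28 each).

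Levels between genes are compared as the deposited FPKM, which is per gene length. The median over libraries was highest for Atp5b, the catalytic beta subunit of ATP synthase (3160 FPKM), then Cox4i1 (2409 FPKM), Cox6a2 (2269 FPKM), Atp5a1 (the alpha subunit, 2251 FPKM) and Atp5g3 (a c subunit gene, 1791 FPKM). The lowest genes with counts were Cox7b2 (0.127 FPKM), Cox6b2 (2.83 FPKM), Cox4i2 (4.52 FPKM) and Ndufaf5 (7.40 FPKM). Of the forms known from muscle, Cox7a1 (1230 FPKM) and Cox8b (1072 FPKM) stood below Cox6a2 and below the single-form subunits Cox5b (1443 FPKM) and Cox6c (1302 FPKM). The forms known from testis, Cox7b2, Cox8c and Cox6b2, were the lowest of complex IV. The median FPKM over the genes of a complex was, in MEC, 302 ± 38 for complex I, 493 ± 39 for complex II, 695 ± 73 for complex III, 737 ± 82 for complex IV and 711 ± 70 for complex V (SD, n = 6). In MOS it was 289 ± 43 for complex I, 520 ± 102 for complex II, 679 ± 85 for complex III, 734 ± 124 for complex IV and 612 ± 83 for complex V (n = 5). Complex I stood below complex II in every group, and complexes III, IV and V did not differ in MEC beyond their SDs. Several of these genes have processed pseudogenes or near-identical copies, among them the c subunit genes Atp5g1, Atp5g2 and Atp5g3, and how the authors' counting split such reads is not given in the sources used here.

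The comparison of MOS with MES asks what the miR-21 vector changed in hearts of mice that had swum. Of the 90 tested genes, 5 fell and 0 rose: Ndufc1, Ndufb2 and Ndufb6, accessory subunits in the membrane arm of complex I, Cox7a2, the form of complex IV subunit VIIa made in most tissues, and Atp5e, the epsilon subunit of the ATP synthase central stalk. The background was 4.58% of 13501 genes called in either direction, and 2.71% called lower. The median log2 fold change was -0.21 over the members and 0.02 over all tested genes, and 85 of 90 members lay below 0, as did 45.9% of all genes. In 12 members every MOS library lay below every MES library, where 1.9% of all genes were separated in that direction. At an unadjusted p under 0.05, 34 members were lower and 0 higher, where 9.95% of all genes were lower.

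Ndufc1 was at 99.8, 66.8, 94.98, 113 and 110 CPM in the 5 MOS libraries, and ran from 118 to 153 CPM in MES with a median of 147. All MOS libraries lay below all MES libraries. It had the smallest adjusted p, at a log2 fold change of -0.55 (SE 0.13, adjusted p = 0.0156 by edgeR). MEC (98.2 to 145 CPM) and MOC (118 to 168 CPM) overlapped MES. Ndufb2 was at 97.7, 67.1, 101, 103 and 103 CPM in MOS and at 118 to 142 CPM in MES (median 135). The groups did not overlap, and the log2 fold change was -0.48 (SE 0.12, adjusted p = 0.0189). Ndufb6 was at 96.4, 66.5, 107, 121 and 107 CPM in MOS and at 129 to 146 CPM in MES (median 136). These did not overlap either, and the log2 fold change was -0.46 (SE 0.12, adjusted p = 0.0284). Ndufb6 lost its call without MES replicate 5 (adjusted p = 0.0624) and without MOS replicate 1, while the other 4 genes kept theirs in each of 23 fits that left out 1 library.

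Cox7a2 was at 247, 178, 298, 269 and 283 CPM in MOS and at 294 to 389 CPM in MES (median 369). Here MOS replicate 3 overlapped the lowest MES library, and the log2 fold change was -0.50 (SE 0.12, adjusted p = 0.0172). Atp5e was at 234, 160, 254, 243 and 266 CPM in MOS and at 289 to 350 CPM in MES (median 326). The groups did not overlap, and the log2 fold change was -0.49 (SE 0.12, adjusted p = 0.0185). MOS replicate 2 was the lowest library for all 5 genes, yet the other 4 MOS libraries also lay below the MES range for every gene but Cox7a2.

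The calls depended on the model. With a term for the series of numbers in the sample titles, 0 members were called by edgeR (5.24% of all genes were), 9 were lower at an unadjusted p under 0.05, and the median was -0.08. The adjusted p-values were then 0.0882 for Ndufc1, 0.108 for Ndufb2 and Cox7a2, 0.112 for Atp5e and 0.165 for Ndufb6. All MES titles belong to one series, and MOS titles to both. Fitting the MOS and MES libraries alone left 1 call, Ndufb2 (adjusted p = 0.0437, with 1.26% of all genes called), and gave the other 4 genes adjusted p-values of 0.0547 to 0.0771. DESeq2 called 14 members lower (7.19% of all genes called), and limma voom with quality weights 21 lower and 2 higher (20.1%).

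**Figure D2:**
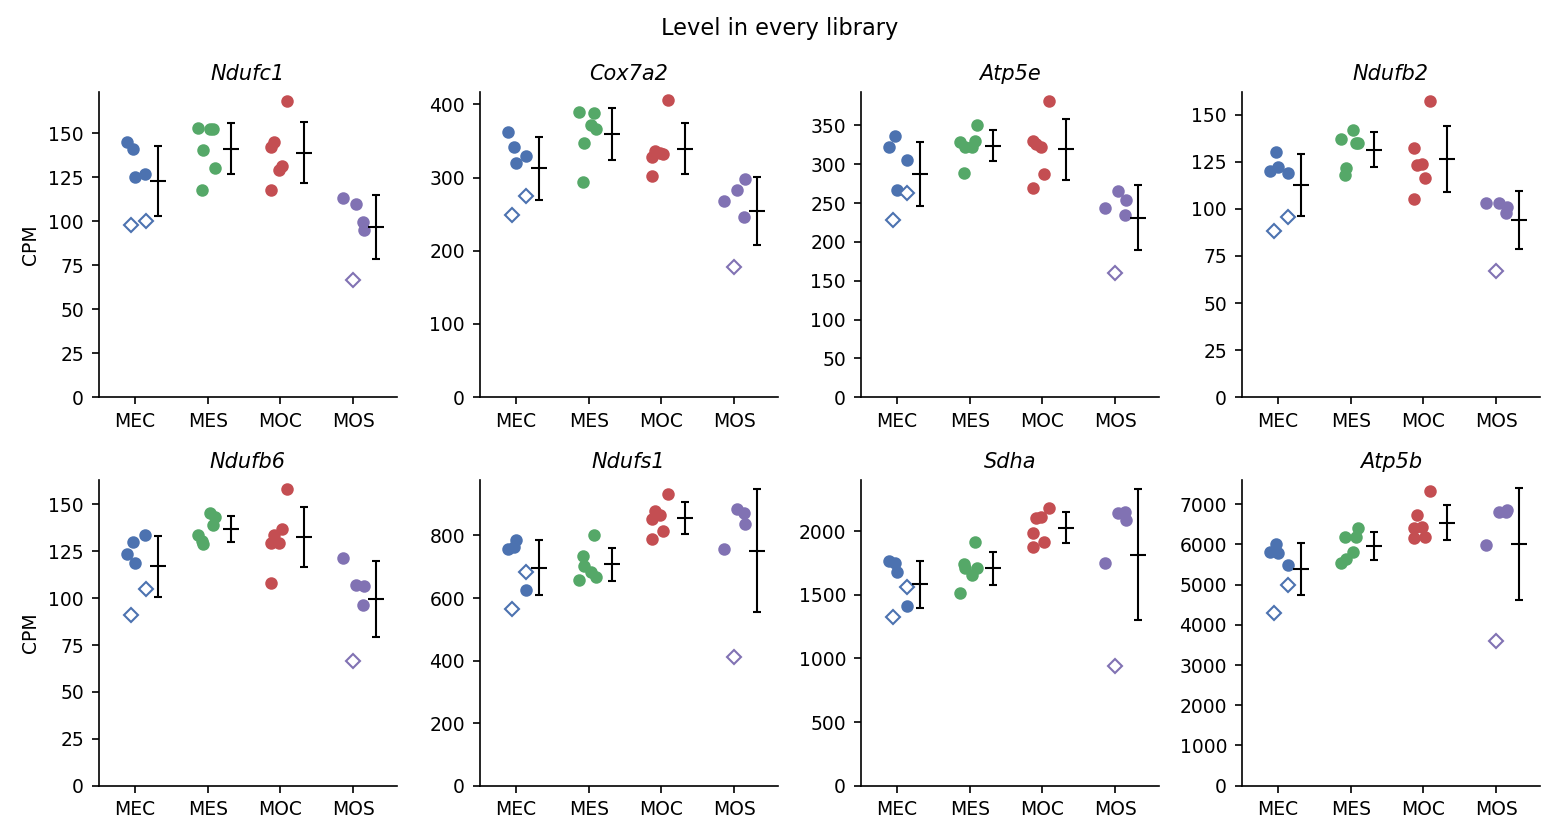
CPM per library (TMM-scaled) by group for the 5 genes that passed the test between MOS and MES (Ndufc1, Cox7a2, Atp5e, Ndufb2, Ndufb6) and for Ndufs1, Sdha and Atp5b; each point is a library, open diamonds are the 3 libraries with high adipocyte genes, and the black bar is the mean ± SD. In the first 5 panels MOS lies below MES, except that MOS replicate 3 overlaps the lowest MES library for Cox7a2, whereas for Ndufs1, Sdha and Atp5b MOS replicate 2 lies alone below the rest of its group.

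Several catalytic and core subunits overlapped between MOS and MES. Sdha, the flavoprotein of complex II that oxidises succinate, was at 2146, 941, 2086, 1746 and 2144 CPM in MOS and at 1512 to 1913 CPM in MES, so that 3 MOS libraries lay above all of MES and 1 far below. Its log2 fold change was 0.09 (SE 0.15, adjusted p = 0.781). Ndufs1, the largest core subunit of complex I, was at 871, 410, 836, 757 and 885 CPM in MOS and at 658 to 802 CPM in MES, again with 3 libraries above and 1 below, and a log2 fold change of 0.09 (SE 0.14, adjusted p = 0.769). Atp5b was at 6797, 3601, 6852, 5998 and 6795 CPM in MOS and at 5538 to 6401 CPM in MES (log2 fold change 0.01). Uqcrc1, a core subunit of complex III, was at 1529, 767, 1438, 1422 and 1492 CPM in MOS and at 1277 to 1585 CPM in MES (log2 fold change -0.14, SE 0.14). In these 4 genes the groups overlapped, and leaving aside MOS replicate 2 the MOS libraries lay within the MES range or above it. Ndufv2, also a core subunit of complex I, differed from them: it was at 487, 291, 475, 467 and 540 CPM in MOS and at 500 to 554 CPM in MES, so that 4 of 5 MOS libraries lay below all of MES (log2 fold change -0.22, SE 0.12, adjusted p = 0.322).

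By complex, the median log2 fold change between MOS and MES was -0.22 for complex I (45 genes, 3 called), -0.17 for complex II (4, 0 called), -0.15 for complex III (8, 0 called), -0.25 for complex IV (16, 1 called) and -0.19 for complex V (17, 1 called). By role, the 7 core subunits of complex I had a median of -0.14, the 29 accessory subunits -0.25 and the 7 assembly factors -0.23. In complex II the catalytic pair Sdha and Sdhb had a median of -0.05 and the membrane anchors Sdhc and Sdhd -0.19. In complex V the 5 subunits of the F1 head and central stalk had a median of -0.16, the 3 c ring genes -0.32 and the 3 other membrane subunits -0.41. The muscle forms of complex IV had a median of -0.38 (3 genes), with Cox7a1 at -0.45 (SE 0.16), Cox8b at -0.38 (SE 0.15) and Cox6a2 at -0.01 (SE 0.15). These medians describe the lists and no test was made between roles.

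**Figure D3:**
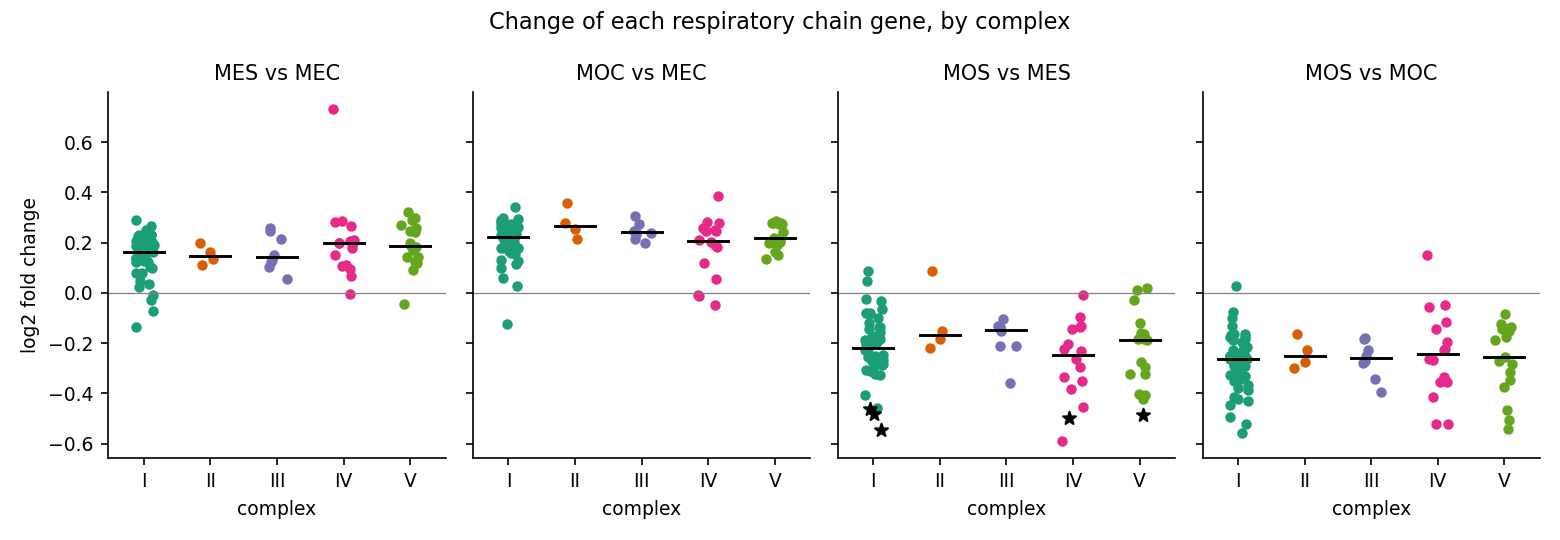
Log2 fold change of each tested gene by complex for the 4 group comparisons; each point is a gene, stars mark an adjusted p under 0.05 and the black line is the median of the complex. The 5 stars lie in the comparison of MOS with MES, and the medians of all 5 complexes lie above 0 in both comparisons with MEC and below 0 in the other comparisons.

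The fold changes between MOS and MES ran with transcript length, taken from the authors' counts and FPKM. Members with up to 500 bases had a median log2 fold change of -0.38 (13 genes), those over 500 and up to 1000 bases -0.24 (36 genes), those over 1000 and up to 2000 bases -0.17 (30 genes) and longer ones -0.12 (11 genes). Spearman's rho between length and fold change was 0.49 across the 90 genes, which are not independent replicates. The 5 called genes had 414 to 754 bases. Over all tested genes, which include the members, the order was the same. Medians in the same bins were -0.25 (63 genes, 13 of them members), -0.12 (570 genes, 36 members), -0.04 (2236 genes, 30 members) and 0.03 (10632 genes, 11 members). The order was also present without the 3 libraries that stood apart. The medians were then -0.24, -0.14, -0.04 and -0.03 in the members and -0.22, -0.12, -0.04 and 0.02 in all genes. The members tested had a median length of 838 bases and all tested genes of 3541 bases, so the set lies mostly at the short end.

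By library, the median deviation of the 13 shortest members minus that of the 11 longest was below 0 in all 5 MOS libraries (-0.16, -0.15, -0.02, -0.16 and -0.10). In MES it was -0.11, 0.15, 0.04, 0.25, 0.22 and 0.08, with replicate 1 alone below 0. Values below 0 were not limited to MOS. In MOC it was -0.01, -0.02, 0.13, -0.05, -0.04 and -0.02, and in MEC 0.05, -0.10, 0.11, -0.02, -0.07 and 0.04. Over the other genes of the same 2 length classes it was also below 0 in all 5 MOS libraries (-0.34 to -0.11) and in MES replicate 1 (-0.11). The same held in MOC replicates 1, 4 and 5 (-0.04, -0.04 and -0.14) and in MEC replicates 1 and 5 (-0.05 and -0.02). A single short gene, Atp5k, a membrane subunit of complex V of 292 bases, was lowest within MES in replicate 1, at 229 CPM. It was at 273 CPM in replicate 3, where the difference between short and long members was above 0 (0.04), and at 329 to 358 CPM in the other MES libraries. When each library's trend with length was removed, 1 of the 5 genes still passed the test, Cox7a2 (log2 fold change -0.35, SE 0.09, adjusted p = 0.033), where 4.25% of all genes were called, and the median over the members went to -0.09. The labels give no RNA quality per library, and its part in the length pattern was not tested.

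**Figure D4:**
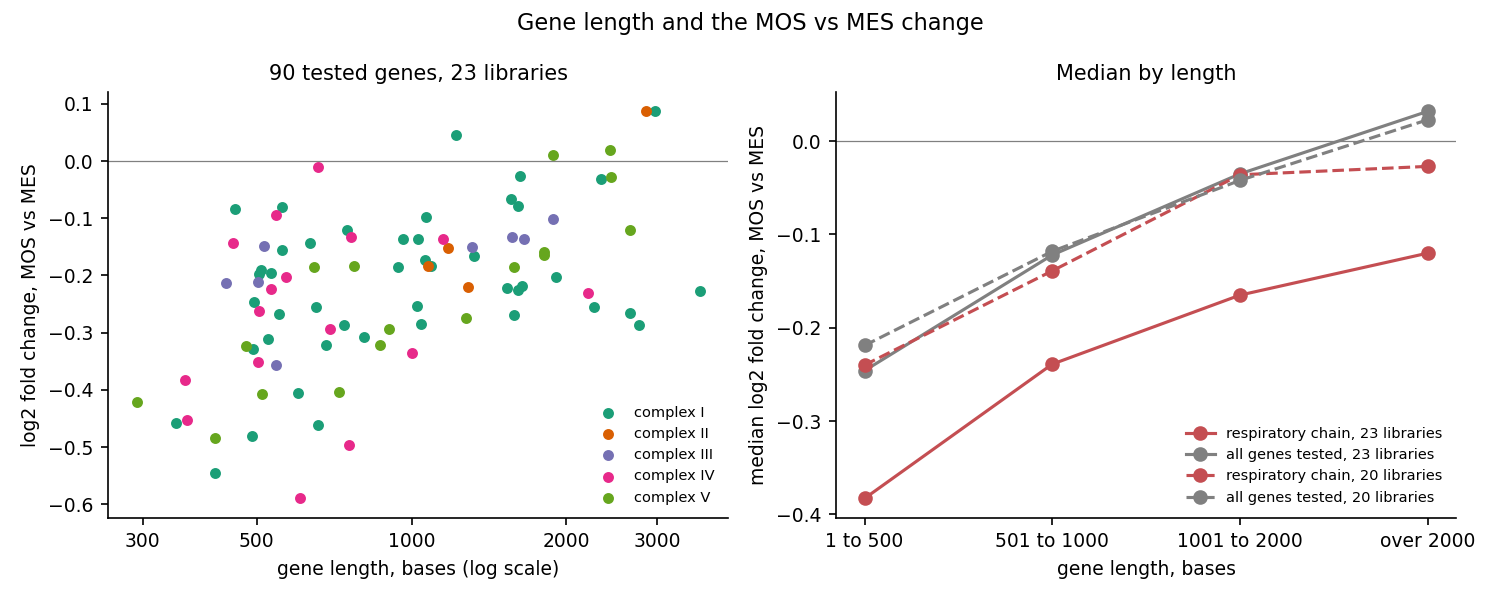
Left, log2 fold change between MOS and MES against transcript length (log axis) for the 90 tested genes; right, median log2 fold change per length bin for the members and for all tested genes, with 23 libraries (solid) and without the 3 libraries with high adipocyte genes (dashed). Members of up to 500 bases have a median of -0.38 and those over 2000 bases of -0.12, and all tested genes show the same order from -0.25 to 0.03.

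Without the 3 libraries that stood apart, the comparison of MOS with MES had 18 members lower and 3 higher, where 17.3% of all genes were called. The 5 genes above kept their call with smaller fold changes: -0.43 for Ndufc1 (adjusted p = 0.00178), -0.39 for Cox7a2 (0.00209), -0.37 for Atp5e (0.00278), -0.37 for Ndufb2 (0.00223) and -0.34 for Ndufb6 (0.00375). The 3 higher genes were Ndufs1 (0.25, SE 0.07, adjusted p = 0.0182), Sdha (0.26, SE 0.08, adjusted p = 0.022) and the complex I accessory subunit Ndufa10 (0.18, SE 0.06, adjusted p = 0.0479). The lower genes were Ndufa2, Ndufa3, Ndufa4, Ndufa7, Ndufaf5, Ndufb2, Ndufb6, Ndufc1 and Ndufc2 by the complex I prefix, Uqcrh in complex III, Cox6c, Cox7a1 and Cox7a2 in complex IV, and Atp5e, Atp5g3, Atp5j, Atp5k and Atp5l in complex V. The 18 lower genes had a median length of 520 bases (292 to 2768), and the 3 higher ones 1220 to 2979 bases. The median over the members was -0.09. In either direction, 23.3% of members and 17.3% of all genes were called. By direction, 1154 of the 13389 genes were called lower and 1164 higher, while 18 of the 90 members were lower and 3 higher. With each library's trend with length also removed, 7 members were called higher and 5 lower over these 20 libraries (17.8% of all genes called), and the median was 0.01.

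The comparison of MOC with MEC asks what the miR-21 vector changed without swimming. None of the 90 genes passed the test, where 2.25% of all genes did, and the smallest adjusted p was 0.0958 (edgeR's quasi-likelihood test). The median log2 fold change was 0.22 against -0.01 over all genes, and 86 of 90 lay above 0, as did 49% of all genes. At an unadjusted p under 0.05, 39 members were higher and 0 lower, where 12.4% of all genes were higher. DESeq2 called 0 members (9.15% of all genes) and limma voom with quality weights called 1 (10%).

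In 5 genes every MOC library lay above every MEC library: Sdha, Ndufs1, Ndufa10, Atp5a1 and Atp5b, where 3.03% of all genes were separated in that direction. Sdha was at 1873 to 2179 CPM in MOC (median 2040) and at 1321 to 1766 CPM in MEC (median 1621). The log2 fold change was 0.36 (SE 0.14, adjusted p = 0.111). Ndufs1 was at 790 to 933 CPM in MOC (median 859) and at 565 to 786 CPM in MEC (median 720), so that the groups only just separated (log2 fold change 0.30, SE 0.13, adjusted p = 0.145). Atp5b was at 6154 to 7321 CPM in MOC and at 4294 to 6012 CPM in MEC (0.28, SE 0.12, adjusted p = 0.148). The largest estimate was that of Cox6a2, the muscle form of complex IV subunit VIa, at 0.38 (SE 0.14, adjusted p = 0.0958), with 1541 to 2095 CPM in MOC and 940 to 1594 CPM in MEC. Complex medians ran from 0.21 for complex IV to 0.27 for complex II. The lowest estimates were Ndufa4l2 at -0.12, Cox8a at -0.05 and Cox6a1 at -0.01, none of which passed.

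Without the 3 libraries, Sdha passed (log2 fold change 0.30, SE 0.08, adjusted p = 0.0277), 1 of 90 members where 5.76% of all genes were called, and the median over the members fell to 0.10. Leaving out MOS replicate 2 alone, a library of neither group, gave 39 members called higher of 90, where 21.3% of all genes were called. The fit estimates the spread from all 4 groups, and the median moved only to 0.23. When each library's adipocyte and mesothelial scores entered the fit, the median was 0.01.

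The comparison of MES with MEC asks what swimming changed with the empty vector, and it shares the MEC libraries with the comparison above. No member passed, where 7.46% of all genes did, and the smallest adjusted p was 0.107. The median was 0.17 against -0.01 over all genes, with 84 of 90 above 0 (49% of all genes) and 14 higher at an unadjusted p under 0.05 (11.6% of all genes were higher). DESeq2 (10.5% of all genes called) and limma voom (12.7%) each called 0 members. Atp5o, the stalk subunit also called OSCP, had the smallest adjusted p: it was at 1069 to 1377 CPM in MES and 714 to 1071 CPM in MEC (0.32, SE 0.12). Atp5h, another stalk subunit, and Ndufb4, an accessory subunit of complex I, were the 2 genes whose groups did not overlap, where 2.9% of all genes were separated upwards. Atp5h was at 736 to 888 CPM in MES and 517 to 733 CPM in MEC (0.29, SE 0.11, adjusted p = 0.116). Cox6b2 had the largest estimate, 0.73 (SE 0.33, adjusted p = 0.177), at only 1.32 to 3.94 CPM in MES and 0.93 to 3.03 CPM in MEC.

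The direction of this median was not stable. Without the 3 libraries it was 0.05, 67 of 90 members lay above 0 (50.4% of all genes), and 1 member passed, Ndufaf4, which was lower (-0.24, SE 0.07, adjusted p = 0.0336), where 11.6% of all genes were called. All MES titles carry numbers of one series and all MEC titles of another, and what the series stands for is not given in the sources used here. With a term for it, which only the MOS group informs, the median was -0.17. That term sets MOS replicates 1 and 2 against MOS replicates 3 to 5. Their median deviations over the members were -0.05 and -0.73 against 0.02, -0.10 and 0.055, and replicate 2 is 1 of the 3 libraries that stood apart. When the adipocyte and mesothelial scores entered the fit it was -0.14, with 7 members called lower (16.3% of all genes were called). Leaving out MOS replicate 2 alone gave 12 members called higher, where 14.2% of all genes were called.

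The comparison of MOS with MOC asks what swimming changed with the miR-21 vector, and it shares libraries with those above. No member passed in edgeR's test, where 0.17% of all genes did. The median was -0.26 against 0.03, 88 of 90 members lay below 0 (44% of all genes), and 52 were lower at an unadjusted p under 0.05, where 9.24% of all genes were lower. DESeq2 called 17 members lower (3.38% of all genes called) and limma voom 11 (2.33%). In 21 members every MOS library lay below every MOC library, where 1.81% of all genes were separated in that direction. They were Ndufa1, Ndufa2, Ndufa3, Ndufa7, Ndufa13, Ndufaf2, Ndufaf4, Ndufb2, Ndufb11, Ndufc1 and Ndufs6 of complex I, Uqcr11 of complex III, Cox5a, Cox6b1, Cox7a1, Cox7a2, Cox7a2l and Cox8b of complex IV, and Atp5e, Atp5k and Atp5l of complex V. Ndufaf4 had the smallest adjusted p: it was at 70.0, 42.7, 63.4, 65.1 and 78.6 CPM in MOS and at 80.7 to 108 CPM in MOC (log2 fold change -0.49, SE 0.12, adjusted p = 0.0664). Ndufa3, an accessory subunit of complex I, was at 192, 128, 236, 202 and 225 CPM in MOS and at 252 to 343 CPM in MOC (-0.56, SE 0.14, adjusted p = 0.0713). Cox8b, the muscle form of subunit VIII, was at 342, 188, 376, 294 and 370 CPM in MOS and at 401 to 574 CPM in MOC (-0.52, SE 0.15, adjusted p = 0.106). These groups did not overlap.

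Without the 3 libraries, 9 members passed between MOS and MOC, all lower: Atp5e, Atp5k, Atp5l, Ndufa1, Ndufa3, Ndufaf4, Ndufb2, Ndufc1 and Uqcr11, where 1% of all genes were called. The median was then -0.14, and the 9 genes had a median length of 436 bases (292 to 3632). Ndufaf4 is the longest of the tested members. With each library's trend with length also removed, 1 member was called (0.575% of all genes) and the median was -0.07. With a term for the series of title numbers, 36 members were called lower (7.97% of all genes called) and the median was -0.48. That value rests on MOS replicates 1 and 2 against MOC, and replicate 2 is 1 of the 3 libraries that stood apart.

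The interaction asks whether the change with swimming differed between the 2 vectors, as the difference of the 2 swimming effects. All 90 estimates lay below 0 (48.8% of all genes did), with a median of -0.44 against 0.01 over all genes. None passed in edgeR's test, where 0.541% of all genes did. At an unadjusted p under 0.05, 69 members were lower, where 8.73% of all genes were lower. DESeq2 called 25 members (5.33% of all genes) and limma voom 4 (1.09%). The smallest adjusted p was 0.0539, for Ndufc1 (-0.72, SE 0.17), and the lowest estimate was Cox7a1 (-0.73, SE 0.22, adjusted p = 0.0831). By complex the medians were -0.42 for complex I, -0.40 for complex II, -0.41 for complex III and -0.46 for complexes IV and V. Without the 3 libraries, 2 of which lie in MEC and 1 in MOS, the median was -0.19 and 4 estimates lay above 0. No member then passed in edgeR's test (0.396% of all genes did), and 38 were lower at an unadjusted p under 0.05 (6.77% of all genes). With the adipocyte and mesothelial scores in the fit of all libraries the median was -0.06. No member passed in that fit (0.504% of all genes did), and 4 of 90 were lower at an unadjusted p under 0.05. Leaving out MOS replicate 3 gave 11 members called lower (2.24% of all genes called), MOS replicate 5 gave 10 (2.63%), MEC replicate 6 gave 6 (1.29%) and MEC replicate 3 gave 4 (1.09%). Leaving out MOC replicate 5 gave 3 (0.534%), and MOS replicates 1 and 4 gave 2 each (1.79% and 0.529%).

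Some subunits exist in tissue forms, and the ratio of 2 forms within a library does not depend on scaling. The forms can differ in length (Cox7a1 has 366 bases and Cox7a2 754), and the ratios were not adjusted for the trend with length. The log2 ratio of Cox6a2, the muscle form, to Cox6a1, the form of most tissues, was 3.75 ± 0.25 in MEC, 3.81 ± 0.09 in MES, 4.16 ± 0.20 in MOC (SD, n = 6 each) and 3.99 ± 0.50 in MOS (n = 5). It was 0.41 higher in MOC than in MEC (two-sided exact permutation p = 0.00866, adjusted p = 0.117 over 24 tests). For Cox8b over Cox8a the values were 1.56 ± 0.21, 1.67 ± 0.24, 1.86 ± 0.22 and 1.35 ± 0.42 in the same order. This ratio was 0.51 lower in MOS than in MOC (exact permutation p = 0.0195, adjusted p = 0.117). The ratio of Ndufa4l2 to Ndufa4 was -4.80 ± 0.31 in MEC, -4.95 ± 0.08 in MES, -5.15 ± 0.16 in MOC and -4.78 ± 0.37 in MOS. None of the 24 tests over 6 pairs passed, with or without the 3 libraries that stood apart, though 8 had an unadjusted p under 0.05 over all libraries. The smallest p that 6 against 6 or 6 against 5 libraries allow in this exact test is 0.00216. The pair Atp5g1 and Atp5g3, which encode the same mature c subunit, varied least in MEC, MES and MOC (SD 0.04 to 0.06), at -0.64 to -0.54 over the group means.

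**Figure D5:**
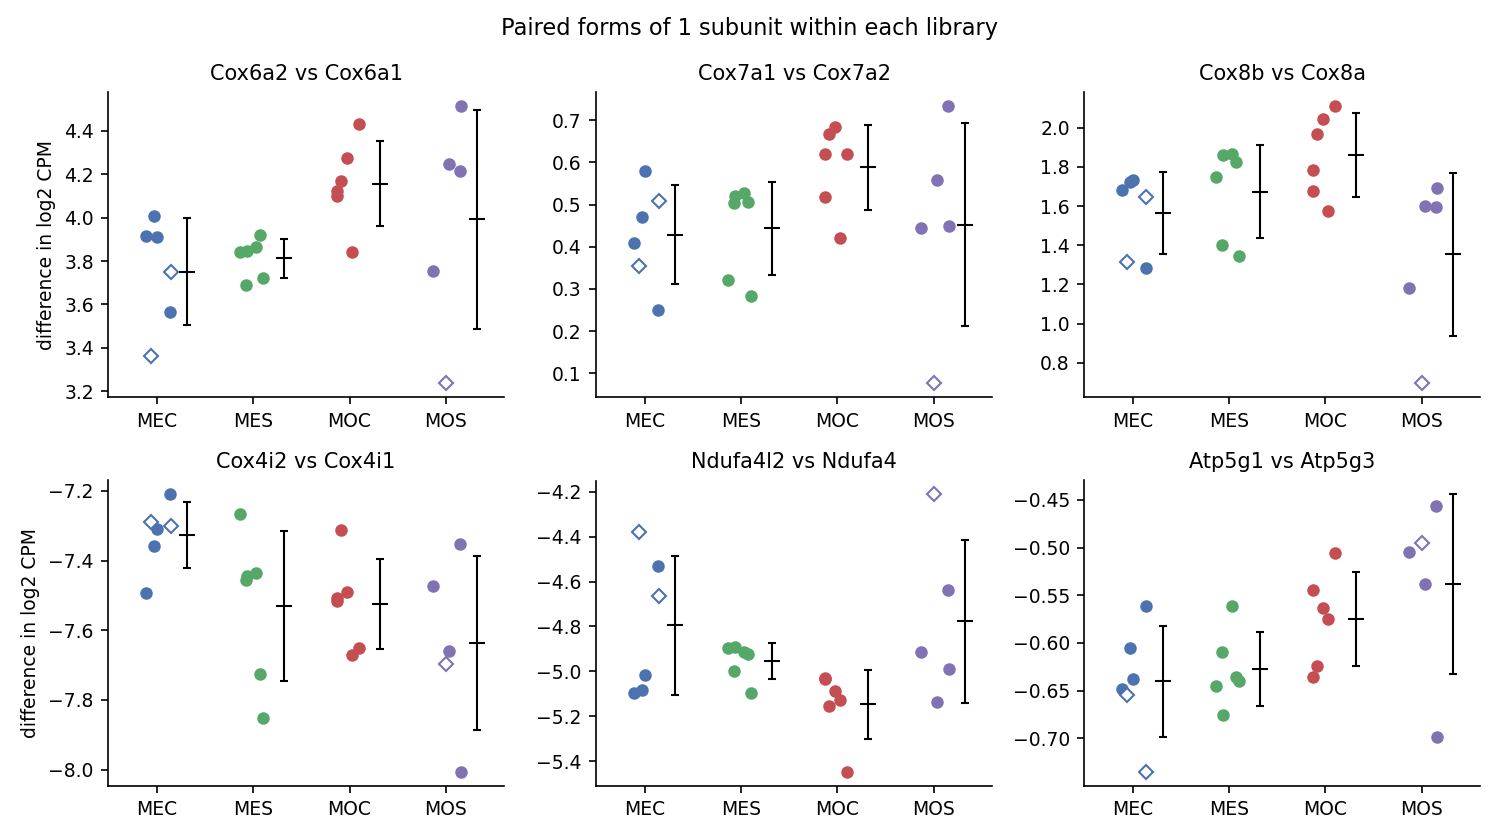
Log2 ratio of CPM of 2 forms of a subunit by library and group for 6 pairs; each point is a library, open diamonds are the 3 libraries with high adipocyte genes, and the black bar is the mean ± SD. Cox6a2 over Cox6a1 is 3.75 in MEC and 4.16 in MOC on average, and MOS replicate 2 is the lowest point of its group for that pair and for Cox8b over Cox8a.

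Other genes of the pathway are given from lists that, apart from Atp5sl, the prefixes do not hold. Of 8 subunits and other factors outside the prefixes, Atpif1, the inhibitor of ATP synthase, rose between MEC and MES (log2 fold change 0.56, SE 0.12, adjusted p = 0.00705 by edgeR). Atpif1 was lower in MOS than in MES (-0.52, SE 0.13, adjusted p = 0.0204), and both calls held without the 3 libraries (adjusted p = 0.0189 and 0.014). Usmg5, a small membrane subunit of complex V, was also lower in MOS than in MES (-0.41, SE 0.12, adjusted p = 0.047). Of 21 assembly factors of complex IV, the copper chaperone Cox17 (-0.34, SE 0.10, adjusted p = 0.042) and Slirp, which stabilises mitochondrial mRNAs (-0.48, SE 0.13, adjusted p = 0.0348), fell between MES and MOS, and Surf1 rose between MEC and MES (0.23, SE 0.07, adjusted p = 0.0423). Of 4 genes listed as assembly factors of complex V, which include the member Atp5sl, Tmem242 fell between MES and MOS (-0.32, SE 0.09, adjusted p = 0.0404 by edgeR). When the 3 libraries were left out, Surf1 lost its call (adjusted p = 0.126), while Usmg5 (0.00709), Cox17 (0.0118), Slirp (0.0153) and Tmem242 (0.0122) kept theirs. In the fit of all 23 libraries no gene was called in any comparison among the assembly factors of complexes I (8), II (4) and III (6), ubiquinone and electron transfer flavoprotein genes (16), tricarboxylic acid cycle genes (18), mitochondrial carriers (12) and regulators of mitochondrial biogenesis (17).

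Several of these lists had calls when the 3 libraries were left out. Between MOS and MES 17.3% of all genes were called, 1164 of 13389 higher and 1154 lower. There, 5 of 17 regulators, 5 of 18 tricarboxylic acid cycle genes, 3 of 16 ubiquinone and flavoprotein genes and 1 of 8 assembly factors of complex I were higher. In the same comparison 1 carrier was lower, and the assembly factors of complex IV had 4 higher and 2 lower. Those of complex V had 1 higher and 1 lower, and the 8 subunits and factors outside the prefixes 3 lower. Between MOC and MEC (5.76% of all genes, with 387 higher and 384 lower), 3 of 12 carriers, 2 regulators, 2 ubiquinone and flavoprotein genes and 1 cycle gene were higher. So was 1 assembly factor of each of complexes I and IV. Between MES and MEC (11.6%, with 812 higher and 743 lower), 1 regulator, 1 ubiquinone or flavoprotein gene and 2 assembly factors of complex IV were lower. The subunits and factors outside the prefixes had 1 higher and 1 lower. Between MOS and MOC (1%, with 56 higher and 78 lower), 1 assembly factor of complex II and 1 of the subunits and factors outside the prefixes were lower.

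The tricarboxylic acid cycle genes, which feed the chain with NADH and succinate, had a median of 0.28 between MOC and MEC, with 15 of 18 higher at an unadjusted p under 0.05 (12.4% of all genes were). Between MOS and MES their median was -0.01, against -0.21 for the respiratory chain genes. Without the 3 libraries, 5 of the 18 were higher in MOS at an adjusted p under 0.05. In that fit 17.3% of all genes were called, 1164 of 13389 higher and 1154 lower. Ppargc1a, the coactivator that drives mitochondrial biogenesis, had log2 fold changes of 0.20 (SE 0.17, adjusted p = 0.425) between MOC and MEC and 0.00 (SE 0.17, adjusted p = 0.994) between MOS and MES. Gabpa, the DNA-binding subunit of GABP, was at 0.25 between MOC and MEC (SE 0.08, adjusted p = 0.0646). Nrf1 was at -0.19 in the same comparison (SE 0.08, adjusted p = 0.115).

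Markers of other cell types moved in the same comparisons. In MES against MEC, 7.46% of all genes were called, 564 of 13501 higher and 443 lower. There, endothelial markers rose in 4 of 8 genes and adipocyte markers were lower in 5 of 9. In MOS against MES (4.58%, with 252 higher and 366 lower), endothelial markers fell in 4 of 8 genes and mesothelial markers were higher in 5 of 8. The mean deviation of log2 CPM over the mesothelial markers was 4.54 in MOS replicate 2. It was -1.60 to 0.39 in the other MOS libraries and -1.52 to -0.85 in MES. Of 16 cardiomyocyte markers, 0 passed edgeR's test in any comparison over all libraries, and at an unadjusted p under 0.05 the comparison of MOC with MEC had 4 higher and that of MES with MEC 2 higher and 2 lower. Without the 3 libraries, 7 of the 16 were higher in MOS than in MES (17.3% of all genes called, 1164 of 13389 higher). In the same fit 2 were lower in MES than in MEC (11.6%, 743 lower) and 1 higher in MOC than in MEC (5.76%, 387 higher). In those fits 4 of 8 endothelial markers were higher in MES than in MEC and 5 of 8 lower in MOS than in MES, and 3 of 7 adipocyte and 5 of 7 mesothelial markers were lower in MES than in MEC. The part of these cells in the values of the respiratory chain genes was not tested beyond the fits without the 3 libraries and with the 2 scores.

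In the authors' deposited tables, which hold 91 of the genes, 6 members were higher in MES than in MEC at a q-value under 0.05 (4.03% of all genes in either direction). In the authors' deposited table for MOC against MEC 15 were higher (6.3% of all genes), with Sdha at a log2 fold change of 0.36 and q = 0.000972. The authors' deposited table for MOS against MES had 6 members lower (0.837% of all genes), which were the 5 genes named above and Ndufa2, with Ndufc1 at q = 0.00122. In the authors' deposited table for MOS against MOC 5 were lower (0.127% of all genes): Atp5k, Atp5l, Ndufa3, Ndufaf4 and Ndufc1.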

How the data were processed

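The authors deposited a raw read count per gene and library and FPKM values of the same libraries (whole-number counts, and FPKM scaled to library total and gene length, per the file headers and values). The authors' deposited comparison tables hold log2 fold changes, p-values and q-values. Per the labels, total RNA was isolated by TRIzol and sequenced from TruSeq stranded mRNA libraries. The build was GRCm39 per the submitters' processing notes. An aligner or counter is not given in the sources used here. Columns were matched to samples by title, and 46 other per-sample columns were not used.

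Counts were tested with edgeR 4.0.16 in R 4.3.3: filterByExpr, TMM scaling, a robust quasi-likelihood fit of 23 libraries in 4 groups, and Benjamini-Hochberg adjustment over 13501 genes, called at an adjusted p under 0.05. CPM are TMM-scaled, and log2 CPM use a prior count of 2. Gene length was computed from the count, FPKM and library total. Isoform ratios had two-sided exact permutation tests. Scripts were tested on simulated data. Promoters and the miRNA are from RefSeq (GRCm38.p6) and 3′ UTRs from GENCODE vM21 (GRCm38), another build than that of the counts, so no position was compared with the counts. Symbols matched 73 of 92 promoters and 91 UTRs.

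The members, the gene lists and the tests were chosen with earlier results of these data known. Named genes are isoform pairs, core subunits, the smallest p per complex and comparison, called genes, the extremes of each comparison, up to 3 genes per list and the highest and lowest FPKM. Others named (the genes with the lowest correlations or a seed match) were chosen after their values were seen. Alternatives were other scaling, filters, DESeq2 1.42.0, limma 3.58.1, a term for the title numbers, tissue covariates, left-out libraries and, added after seeing the data, removal of the length trend.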

Additional observations from a re-analysis of the deposited data

Results flagged for a closer look

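Within groups of 5 or 6 libraries, 48 sets of library values were examined for a single library far from the rest of its group, and 7 had one. Chance flags about 1 in 20 such groups. In 6 of the 7 it was MOS replicate 2, low for the median deviation over all members (-0.726) and for complexes I (-0.743), II (-0.817), III (-0.696), IV (-0.696) and V (-0.709). The other was MOC replicate 3, with a log2 ratio of Ndufa4l2 to Ndufa4 of -5.447, the lowest of its group. Gene by gene, MOS replicate 2 stood apart in 45 of 90 members, and in MEC, MES and MOC a library stood apart in 2, 6 and 12 members. These genes move together, so the 45 are not separate observations.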

How the results depend on the processing

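No paired analysis was possible because the labels give the groups no shared replicate numbers. RLE and upper quartile scaling, no filter on low counts and a stricter filter kept each count of called members within 1.5 times, with 5 to 7 called between MOS and MES. Counts that moved further, and medians that moved by at least the SD between libraries given at the end, follow, and the cause was not tested. Of the medians that moved by less, those between MOS and MES went from -0.206 to -0.077 with the title numbers, -0.047 with the covariates and -0.101 with limma voom. With library totals as the only scaling, 7 members were called in MES against MEC, 21 in MOS against MES, 4 in MOS against MOC and 8 in the interaction. DESeq2 called 14, 17 and 25 in the last 3. limma voom with quality weights called 1 in MOC against MEC, 23 in MOS against MES, 11 in MOS against MOC and 4 in the interaction, with an interaction median of -0.228. Fitting only the groups compared gave 4 in MOC against MEC and 1 in MOS against MES, and was not run for the interaction, which needs all 4 groups. A term for the title numbers gave 0 in MOS against MES and 36 in MOS against MOC, with medians of -0.169 in MES against MEC and -0.475 in MOS against MOC. Without the 3 libraries high in adipocyte genes, the calls were 1 (lower), 1 (higher), 21 (18 lower) and 9 (lower) in MES-MEC, MOC-MEC, MOS-MES and MOS-MOC, and the interaction median was -0.192. With adipocyte and mesothelial scores as covariates, 7 were called in MES-MEC and 17 in MOS-MOC, and the medians were -0.135 in MES-MEC, 0.008 in MOC-MEC and -0.06 in the interaction. Under these covariates Ndufs1 (-0.317) and Uqcr11 (-0.252) turned to called lower in MES-MEC. With the length trend removed, 1 was called in MOS-MES. With it removed and the 3 libraries left out, 2 (1 higher), 7 (higher), 12 (7 higher) and 1 (lower) were called in the 4 comparisons, the MOS-MES median was 0.009 and the interaction median -0.115, and Cox6a2 (0.275), Ndufa12 (0.217) and Ndufb4 (0.243) turned to called higher in MOS-MES. Leaving out 1 library at a time gave 0 to 12 called in MES-MEC, 0 to 39 in MOC-MEC, 4 to 8 in MOS-MES, 0 to 1 in MOS-MOC and 0 to 11 in the interaction, with medians of 0.104 to 0.209, 0.169 to 0.257, -0.252 to -0.083, -0.313 to -0.141 and -0.495 to -0.316. No isoform ratio passed in any of these. The mean in place of the median of FPKM gave 988 for complex V over all libraries, in place of 748. The SD between libraries of the median over members was 0.205, pooled within groups with the 3 libraries included. Every tested member but Cox6b2 had at least 93 counts in each library. Whether spread or depth limits these medians was not tested.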
